A study of Oryza sativa with 6 samples.

Results

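The deposited PIF4-GFP peak list of rice leaves holds 29513 peaks linked to genes, and 2442 of them are classed by the authors at a transcription end (8.27%, Wilson 95% interval 7.97 to 8.59). These 2442 peaks were chosen by that class alone, as every row whose annotation begins with the label for a transcription termination site. The other rows are 23278 promoter peaks, 2227 exon peaks and 1566 intron peaks. Each transcription-end peak belonged to a different locus, so the class covers 2442 of the 24592 loci with any peak (9.93%).

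Leaves were taken from potted rice plants at 3 weeks of age, grown in fluctuating light with drought. The groups are 3 libraries of a line that overexpresses PIF4 fused to green fluorescent protein (PIF4-GFP) and 3 libraries of a GFP mock, and all 6 shared that growth regime. The labels name neither the promoter of the transgene nor the number of lines, and nothing in them says that replicates came from separate plants, so p-values measure only the spread between these samples. The labels describe total RNA for all 6 samples, while the series' design text speaks of chromatin immunoprecipitation with sequencing (ChIP-seq), in which fragments bound by a tagged protein are enriched and piled-up regions are called as peaks. The expression tables hold 1177 rows, mostly of transcription factors, and none of the leaf photosynthesis, guard cell or root markers (0 members each), so the tissue could not be checked on markers.

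PIF4 is a phytochrome-interacting basic helix-loop-helix (bHLH) factor. In Arabidopsis, light-activated phytochrome limits its abundance, and it binds short E-box and G-box motifs, mostly in promoters, to control growth in response to shade and warmth. A transcription-end class is set from the gene model: it takes peaks placed near the annotated 3′ end of a transcript, where the next gene may also begin.

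Only 1 peak list was used here, and it gives position, class, strand and distance to the transcription start of each peak, with no height or score. All 29513 peak names begin with PIF4-GFP1, and whether this means a single library or a pool is not stated. No list of the GFP mock was used here. Signal that a mock would also give at the same places was therefore not tested. The intervals below cover counting error only and treat peaks as independent, which neighbouring peaks may not be.

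The class combined many narrow peaks with a tail of very wide ones. Widths ran from 200 to 30600 bp with a median of 1200 bp and quartiles of 600 and 2600 bp, on a grid of 200 bp. Peaks of at most 400 bp numbered 497 (20.4%, 18.8 to 22.0), against 7.33% of the peaks of all other classes, a difference of 13.0 percentage points (Newcombe 95% interval 11.4 to 14.7). Exon peaks were narrow slightly more often (23.3%), intron peaks less often (12.7%) and promoter peaks least often (5.44%). At the other end of the range, 391 transcription-end peaks were wider than 4000 bp (16.0%, 14.6 to 17.5), against 6.19% of the other classes, a difference of 9.82 points (8.39 to 11.4). That share was 5.43% in exon, 8.49% in intron and 6.11% in promoter peaks. Of all 261 listed peaks wider than 8000 bp, 81 were at transcription ends (31.0%), although the class made up 8.27% of the list. Transcription-end peaks covered 5.30 Mb, 9.99% of all listed bases, and the 391 wide ones held 51.4% of that length.

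The wide peaks lay mostly at genes on the + strand, whereas narrow ones were shared evenly between strands. Of all 2442 peaks, 1531 were at + strand genes and 911 at - strand genes (62.7% on +, 60.8 to 64.6). The + strand held 54.0% of exon peaks, 50.8% of intron peaks and 45.7% of promoter peaks, and the excess at transcription ends was 8.72 points over exon peaks (5.89 to 11.5), 11.9 over intron peaks (8.79 to 15.0) and 17.0 over promoter peaks (14.9 to 19.0). Up to 800 bp there was no such excess, with 494 peaks on the + and 497 on the - strand (49.8% on +, 46.7 to 53.0). From 1400 to 2000 bp the counts were 276 and 143. From 2200 to 4000 bp they were 267 and 91, and from 4200 to 8000 bp 265 and 45. Above 8000 bp, 79 peaks were on the + strand and 2 on the - strand (97.5% on +, 91.4 to 99.3).

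Promoter peaks of the same widths went the opposite way. From 4200 to 8000 bp, 461 promoter peaks were on the + and 817 on the - strand, and above 8000 bp 9 were on the + and 136 on the - strand (6.21% on +, 3.30 to 11.4). Over all classes together, peaks wider than 8000 bp were on the + strand in 39.8% of cases (34.1 to 45.9). The median width at transcription ends was 1600 bp on the + strand and 800 bp on the - strand. The 20 widest transcription-end peaks were all at + strand genes, and 23 at + strand genes exceeded the widest at a - strand gene, which spanned 12800 bp. Strand is a property of the gene model and not of the immunoprecipitated fragments. Whether the way wide peaks were assigned to genes plays a part was not tested.

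**Figure D1:**
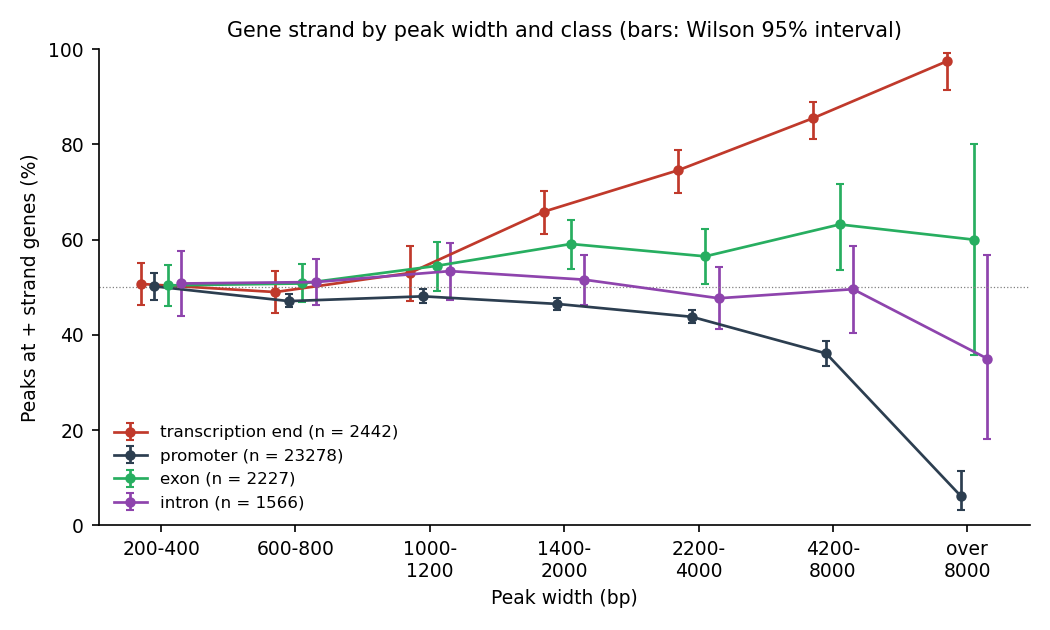
Share of peaks at + strand genes (%) by peak width (bp, binned) for the 4 classes of the list; points are shares, bars are Wilson 95% intervals and the dotted line marks equal strands. All classes start near 50% at 200 to 400 bp, transcription-end peaks reach 97.5% above 8000 bp and promoter peaks fall to 6.21%.

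Most loci with a transcription-end peak also had a promoter peak. This was so for 1636 of 2442 loci (67.0%, 65.1 to 68.8). Loci with an exon peak had one in 72.8% and loci with an intron peak in 73.0%, so that the share at transcription ends differed by -5.81 points (-8.45 to -3.15) and by -6.01 points (-8.98 to -2.97). With loci that carry both kinds of peak left out, the differences were -6.11 and -6.28 points. Within broad ranges of width up to 4000 bp the pooled difference was not seen, in a split chosen after seeing the data. Up to 800 bp the difference was -1.85 points to exon peaks (-5.35 to 1.63) and -2.23 points to intron peaks (-6.25 to 1.95). From 1000 to 4000 bp it was 0.514 points (-3.37 to 4.41) and 0.0765 points (-3.96 to 4.16). Above 4000 bp the share with a promoter peak was 24.6% at transcription ends, above the 14.9% of exon peaks (9.68 points, 1.25 to 16.6) and below the 47.4% of intron peaks (-22.8 points, -32.2 to -13.4). A peak that covers the start of its own gene leaves little room for a separate promoter peak. The differences above 4000 bp are therefore partly fixed by how often each class covers the start. Read from the promoter side, 1636 of 22940 loci with a promoter peak had a transcription-end peak too (7.13%). At 743 loci the transcription-end peak was the sole listed peak (30.4%). An exon peak accompanied it at 98 loci (4.01%) and an intron peak at 118 loci (4.83%). At 63 loci there was an exon or intron peak without a promoter peak. In all, 1523 of these loci had 2 peaks, 158 had 3, 15 had 4 and 3 had 5.

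The share with a promoter peak differed by strand and dropped sharply with width. It was 58.6% at + strand loci (897 of 1531) and 81.1% at - strand loci (739 of 911), a difference of -22.5 points (-26.0 to -18.9). The gap was also present among narrow peaks, where both strands were equally common: up to 800 bp the share was 70.6% on the + strand and 85.1% on the - strand. Above 4000 bp it was low on both, at 24.1% of 344 loci on the + strand and 27.7% of 47 loci on the - strand. Of these wide peaks, 178 on the + and 22 on the - strand covered the transcription start of their own gene. A separate promoter peak was listed for 0 of those 200, which their width largely fixes. The drop with width is therefore partly fixed by the list. Peaks with a promoter peak at their locus had a median width of 1000 bp and those without one 2000 bp, with upper quartiles of 1800 and 5400 bp.

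Some of the wide peaks reached across the whole gene. The start of each gene was placed from the peak's centre, its strand and its listed distance. By this measure 200 transcription-end peaks covered the transcription start of their own gene (8.19%, 7.17 to 9.34), against 2.87% of exon and 2.68% of intron peaks. These 200 peaks were 4200 to 30600 bp wide with a median of 6200 bp. They comprised 178 at + strand genes (11.6% of those) and 22 at - strand genes (2.41%). Of the 200, 0 had a separate promoter peak, a count that the width of these peaks and the gaps of at least 800 bp in the list largely fix. Counting them as having one raised the share with a promoter peak from 67.0 to 75.2%. The same was not done for exon and intron peaks that cover their start. The 75.2% is therefore not comparable with the 72.8% of exon and 73.0% of intron loci.

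**Figure D2:**
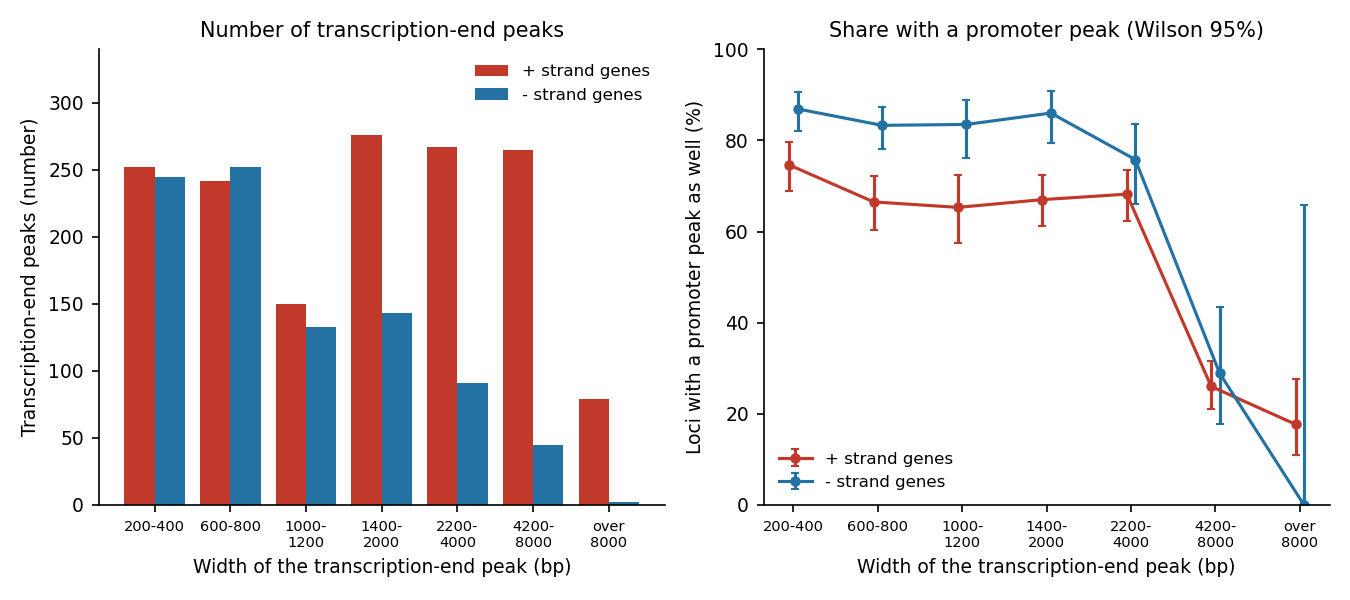
Left, number of transcription-end peaks by width (bp, binned) at + and - strand genes; right, share of those loci that also have a promoter peak (%), with Wilson 95% intervals. Counts match between strands up to 800 bp and part above 1200 bp, and the share with a promoter peak drops on both strands above 4000 bp, to 24.1% and 27.7%. There 178 peaks on the + and 22 on the - strand cover their own start, which largely fixes the lack of a promoter peak at those loci.

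Where both peaks were present, a gap lay between them, which the list fixes for any pair of its peaks. The gap between the transcription-end peak and the promoter peak of the same locus ran from 800 to 21200 bp with a median of 3000 bp and quartiles of 1600 and 4600 bp. The smallest value equals the smallest gap between any transcription-end peak and its neighbours, 800 bp. The transcription-end peak was the wider of the pair at 624 loci (38.1%), the narrower at 904 (55.3%) and equal at 108 (6.60%). At + strand loci its median was 1400 bp against 1200 bp for the promoter peak, and at - strand loci 800 bp against 1400 bp.

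Distances to the transcription start are partly fixed by the class. They ran from 657 to 22057 bp with a median of 4250.5 bp and quartiles of 3087 and 5784.5 bp. Exon peaks lay at a median of 3717 bp and intron peaks at 4146 bp. Strand made little difference here, with medians of 4235 bp on the + and 4262 bp on the - strand. Loci with a promoter peak had the more distant transcription-end peak, at a median of 4504 bp against 3620.5 bp without one. With gaps of at least 800 bp, a peak near its start leaves less room for a separate promoter peak. This difference is therefore partly fixed too. The 3 nearest, at LOC_Os10g19250 (657 bp), LOC_Os09g29640 (690 bp) and LOC_Os12g42390 (819 bp), were 400 to 600 bp wide and had no promoter peak.

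The 5 widest peaks show how far the class can reach. All 5 are at + strand genes and have no promoter peak at the locus. All but that of LOC_Os01g49950 covered their own start, which largely fixes the lack of a separate promoter peak there. The sources used here do not give the genome build of the coordinates. The peak of LOC_Os01g01230 ran from 102800 to 133399 on chromosome 1, 30600 bp. That of LOC_Os05g03650 ran from 1575600 to 1605599 on chromosome 5, 30000 bp. On chromosome 7, the peak of LOC_Os07g24480 spanned 24000 bp from 13942000 to 13965999. A second wide peak of chromosome 5, at LOC_Os05g01370, spanned 22400 bp from 227000 to 249399. The fifth, at LOC_Os01g49950, ran from 28709000 to 28729799 on chromosome 1, 20800 bp. It also lay 19503 bp from its start and so was among the 5 farthest. It did not cover its own start, covered that of 1 other listed locus, and was accompanied by 2 intron peaks of 1000 bp. The same 5 loci had the largest summed width over all classes.

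The farthest peaks other than that of LOC_Os01g49950 were of ordinary width. LOC_Os11g25980 had its transcription-end peak 22057 bp from the start, at 14845000 to 14846199 on chromosome 11. At LOC_Os10g40780 the distance was 19987 bp, at LOC_Os07g19530 19903 bp and at LOC_Os02g25580 19892 bp. These 4 peaks were 800 to 1200 bp wide, and all 4 loci had a promoter peak as well.

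The next listed peak downstream was a promoter peak of another locus in 2041 of 2440 cases (83.6%, 82.1 to 85.1), at a median gap of 5800 bp. Promoter peaks make up 78.9% of the whole list, and the same measure gave 71.8% over all listed peaks, 77.4% for exon peaks and 63.2% for intron peaks. The difference was 6.24 points to exon peaks (3.97 to 8.52) and 20.5 points to intron peaks (17.7 to 23.3). These differences are partly fixed by the class. A transcription-end peak sits last in its gene, whereas an exon or intron peak can be followed by another peak of its own locus. The next peak downstream of a transcription-end peak belonged to a gene on the opposite strand in 1055 cases (43.2%), 46.3% for + strand and 38.1% for - strand genes. Upstream, the nearest listed peak was of the same locus in 1699 cases (69.6%), with a median gap of 3200 bp. Only 40 transcription-end peaks covered the start of another locus in the list (1.64%). A gene with no peak of its own does not enter that count.

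All 12 chromosomes carried the class, at broadly similar shares of their listed peaks. Counts ran from 96 on chromosome 12 to 369 on chromosome 1. The share of listed peaks was 9.44% on chromosome 4 (8.38 to 10.6), 9.13% on chromosome 1 and 9% on chromosome 2, and between 7.48 and 8.36% on the others except chromosome 12. Chromosome 12 stood lowest at 5.79% (4.76 to 7.02), and its interval overlapped those of chromosomes 5, 6, 8, 10 and 11. Per Mb up to the last listed peak, the class ranged from 3.49 on chromosome 12 to 8.53 on chromosome 1. The share on the + strand was above 50% on each chromosome, from 58.5% on chromosome 2 to 66.7% on chromosome 12. Among peaks over 4000 bp, those at + strand genes were the majority on each chromosome, from 14 of 18 on chromosome 8, 35 of 43 on chromosome 4 and 19 of 23 on chromosome 10 to 51 of 54 on chromosome 3 and 13 of 13 on chromosome 12. The share with a promoter peak ranged from 62.4% on chromosome 5 to 72.8% on chromosome 7.

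In bins of 1 Mb, 7 of 379 bins with a listed peak held no transcription-end peak, and the median was 6. The highest count was 18 of 131 listed peaks (13.7%), in the bin from 31 Mb on chromosome 3. With bins ranked by their number of listed peaks and split in 4, the class made up 7.76% in the sparsest set, 7.36% in the second, 7.83% in the third and 9.33% in the densest. The densest and the sparsest differed by 1.56 points (0.518 to 2.55), and the first 3 sets showed no rise with density.

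**Figure D3:**
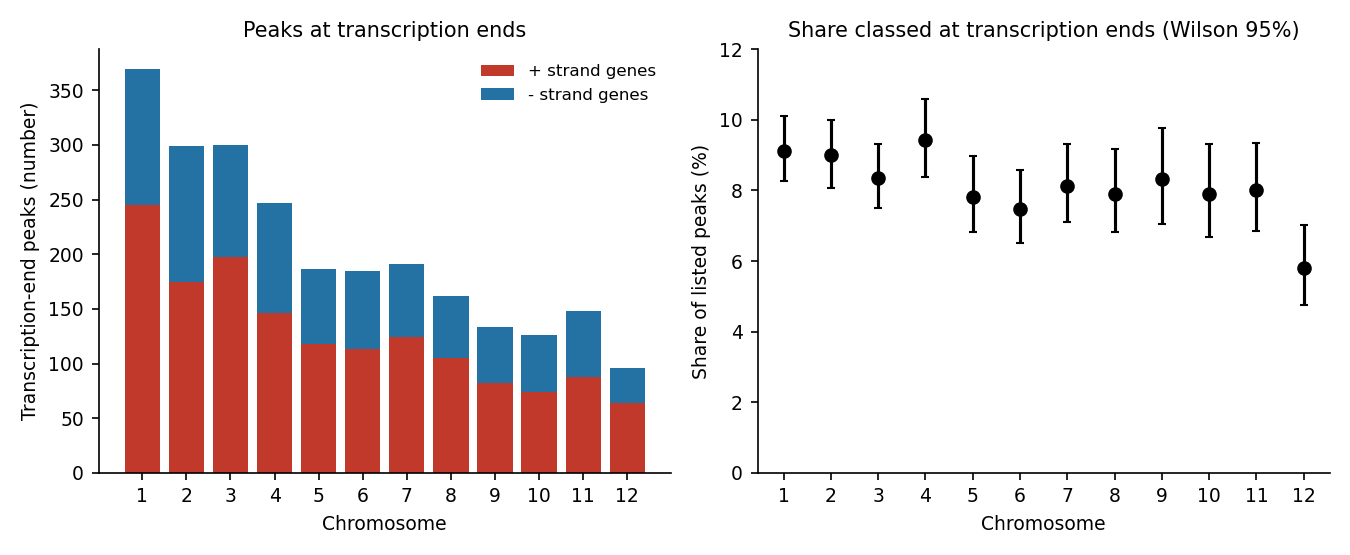
Left, number of transcription-end peaks per chromosome, stacked by strand of the gene; right, their share of all listed peaks of the chromosome (%), with Wilson 95% intervals. Chromosome 1 holds the highest count, 369, and chromosome 12 the lowest share, 5.79%.

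Genes that are also in the expression tables can be named and placed against their annotated end. Of the 1153 loci of the tables, 74 had a transcription-end peak (6.42%), in 76 rows. Of the 888 with any peak this was 8.33% (6.69 to 10.3), and of the other listed loci 9.99%, a difference of -1.66 points whose interval, -3.35 to 0.381, includes 0. These 74 peaks had a median width of 1000 bp, 8 exceeded 4000 bp, 43 were at + strand genes and 56 had a promoter peak at the locus (75.7%, 64.8 to 84.0). In 57 rows the start of the gene in the tables and the start implied by the list agreed within 200 bp. There the peak centre lay past the gene end in each case, by 25.5 to 4203.5 bp with a median of 792 bp. In 40 of the 57 the peak lay wholly beyond the annotated end, and in 17 it overlapped the gene. In the remaining rows the starts differed by more, and the class of a peak refers to the gene model of the list.

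**Figure D4:**
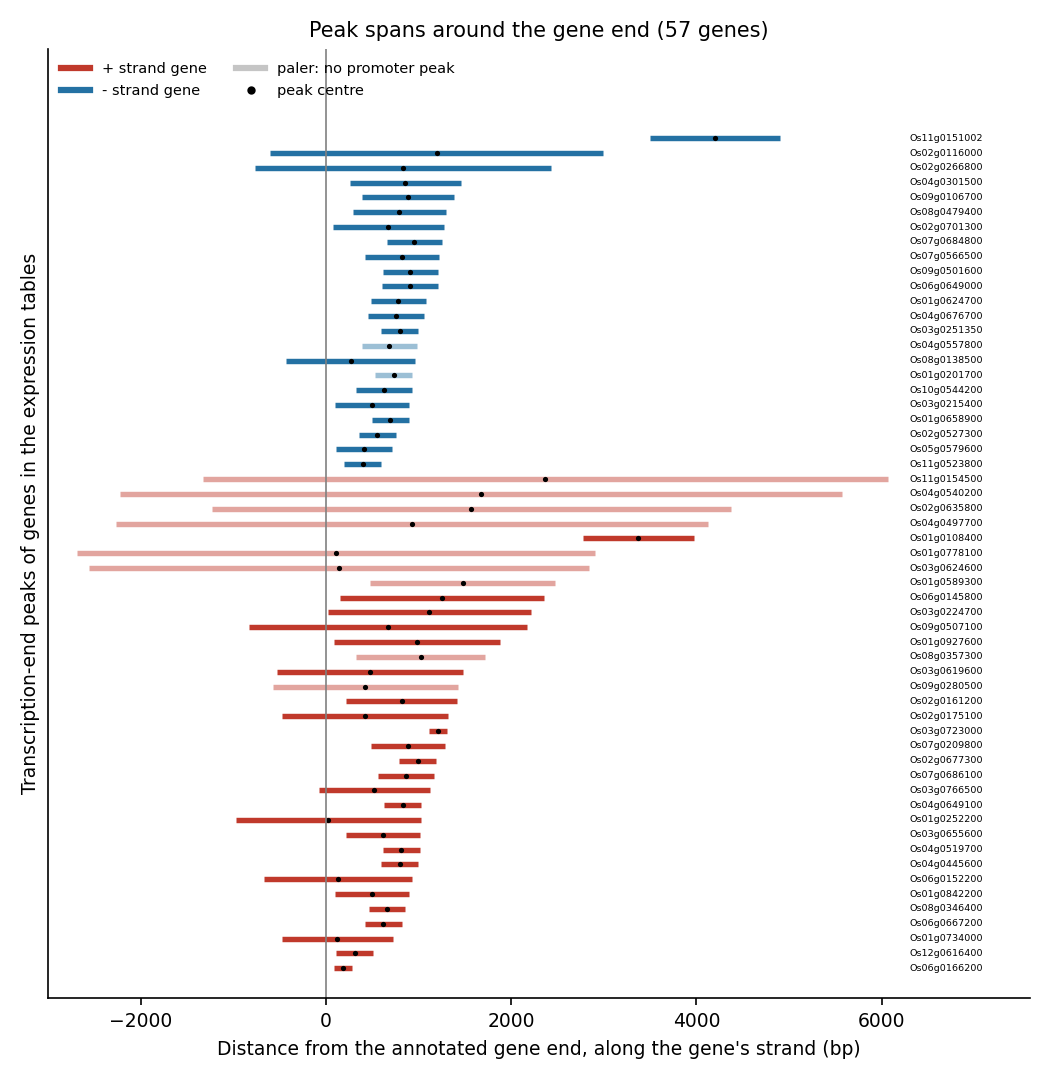
Spans of 57 transcription-end peaks (bars) and their centres (dots) along the gene's strand, as distance from the annotated gene end (bp, at 0); red marks + strand and blue - strand genes, and paler bars have no promoter peak at the locus. The centres lie 25.5 to 4203.5 bp past the gene end, and the bars that reach far on both sides are pale and red.

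The gene lists were matched on the descriptions in the tables and miss family members described otherwise, so that their counts are not counts of whole families. Auxin response factors, which activate or repress auxin-responsive genes, gave the highest share among the lists of the tables: 5 of the 20 auxin loci had a transcription-end peak (25%), against 6.42% over all loci of the tables. The 5 are Os01g0670800 (OsETTIN2), Os01g0927600 (OsARF2), Os04g0519700 (ARF10), Os04g0671900 (ARF12) and Os11g0523800 (OsARF1). All 5 loci had a promoter peak too. The start implied by the list lay 4429.5 bp from the start in the tables for Os04g0671900 and 527.5 bp for Os01g0670800. For these genes the promoter class refers to the listed start. The transcription-end peak of Os11g0523800 lay at 18934800 to 18935199 on chromosome 11, 400 bp wide, with its promoter peak at 18939600 to 18941999. For Os01g0927600 the pair lay at 40701000 to 40702799 and 40695200 to 40696999 on chromosome 1. The peaks of the other 3 were 400 to 800 bp wide.

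Of the loci described as bHLH, the family to which PIF4 belongs, 6 of 54 came with a transcription-end peak (11.1%), and 5 of the 6 also had a promoter peak. Os10g0544200 (BHLH004) carried a 600 bp peak at 21243800 to 21244399 on chromosome 10 and a promoter peak, whereas Os04g0557800, an R-type bHLH protein, had a 600 bp peak and none at the promoter. Of loci described as NAC factors, plant regulators of development and stress responses, the count was 6 of 55 (10.9%). Of these, 3 at + strand genes had wide peaks without a promoter peak: Os11g0154500 with 7400 bp, Os03g0119966 with 7000 bp and Os03g0624600 with 5400 bp.

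Light signalling genes had 2 of 36 (5.56%), and both peaks were wide, on the + strand and without a promoter peak. Os04g0540200, a B-box zinc finger protein, had a peak of 7800 bp at 27027200 to 27034999 on chromosome 4. Os04g0497700, a CONSTANS-like protein of the family that includes photoperiodic flowering regulators, had one of 6400 bp at 24889200 to 24895599 on the same chromosome. Both spans include the whole annotated gene, which runs from 27027267 to 27029421 for Os04g0540200 and from 24889983 to 24891470 for Os04g0497700.

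The drought and AP2/ERF list had 2 of 62 (3.23%). Os02g0677300 (DREB1G), a factor of the family that binds dehydration-responsive elements, had a 400 bp peak at 27655000 to 27655399 on chromosome 2 and a promoter peak at 27652400 to 27653799. Os05g0121600 (RSR1), named in the tables for starch biosynthesis, had a peak of 2800 bp and a promoter peak. The heat shock list had 2 of 22 (9.09%), Os02g0527300 (HSFA3) with a promoter peak and Os08g0546800 (HSFB2B) without one. For Os08g0546800 the start implied by the list lay 5869.5 bp from the start in the tables. Its locus also had an exon and an intron peak, so a lack of peaks at its own promoter is not shown. The gibberellin, GRAS and other hormone list had 4 of 45 (8.89%), and the MADS list had 2 of 26 (7.69%), Os03g0215400 (OsMADS1, a floral organ identity factor) and Os06g0667200 (OsMADS30). The zinc finger list had 5 of 100 (5%), the homeobox list 4 of 86 (4.65%), the WRKY list 3 of 69 (4.35%), the bZIP and abscisic acid list 1 of 36 (2.78%), the MYB list 2 of 75 (2.67%) and the clock list 0 of 2. The SAL1-PAP list had 0 members in the tables. A count of a few loci per list carries wide counting error, and the lists were not tested against each other.

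Further genes with a transcription-end peak belong to these families by their names but to none of the lists. They include Os01g0201700 (OsMADS3) with a 400 bp peak and no promoter peak, Os03g0224700 (HSFA9) with 2200 bp and a promoter peak, and Os04g0649100 (SHAT1, also named AP2-5) with 400 bp and a promoter peak. The zinc finger homeodomain gene Os08g0479400 (OsZHD2) had a 1000 bp peak and a promoter peak. Among bZIP genes, Os05g0443900 (OsbZIP41) had a peak of 1400 bp and Os09g0280500 (OsbZIP70) one of 2000 bp, both without a promoter peak. For Os05g0443900 the start implied by the list lay 3032.5 bp from the start in the tables, and its locus also had an intron peak. Os01g0658900 (described as OSBZ8) and Os02g0175100 (described as similar to RISBZ4) had peaks of 400 and 1800 bp, both with a promoter peak. Os02g0701300 (GRF4, a growth-regulating factor that raises grain size in rice) had a 1200 bp transcription-end peak at 28862000 to 28863199 on chromosome 2 and a promoter peak at 28865400 to 28867599. Os02g0635800, a TCP factor, had a 5600 bp peak at 25497200 to 25502799 on the same chromosome and no promoter peak.

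A further 12 genes of the tables had their annotated start inside a transcription-end peak listed under another locus. Those 12 peaks were 1000 to 9800 bp wide and 11 were at + strand genes; 10 of the 12 genes inside were on the + strand as well. None of the 12 genes had a peak under its own locus. Os04g0610400, an AP2 factor similar to RAP2.6, lay inside the 9800 bp peak of LOC_Os04g52074, at 30933800 to 30943599 on chromosome 4. Os01g0946200, a NAC-domain gene, lay inside the 9200 bp peak of LOC_Os01g71780, at 41582000 to 41591199 on chromosome 1. For these genes the list names a neighbouring locus, while the peak also spans their own start.

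Expression of the genes with a transcription-end peak did not pass the test between PIF4-GFP and GFP mock. Values are FPKM, fragments scaled by gene length and library size, from libraries of 14933740 to 17919095 reads, totals that were computed here from the values. The coding lengths implied by the FPKM values were longer than the whole gene named on the row in 191 of 917 rows, and in 9 of 57 rows of genes with a transcription-end peak. Over all 917 rows these lengths were unrelated to the span of the named gene (Spearman rho 0.0235, across rows, which are not replicates). The link between a row's name and its expression value is therefore uncertain for every value below. Of 847 rows tested with limma, 0 reached an adjusted p below 0.05 (0%), while 33 were below 0.05 unadjusted (3.90%), and 29 of these were lower in PIF4-GFP (3.42%). Of the 54 tested rows of genes with a transcription-end peak, 0 passed and 3 were below 0.05 unadjusted (5.56%), each lower in PIF4-GFP. In 43 of the 54 the mean was lower in PIF4-GFP (79.6%), as in 673 of all 847 rows (79.5%), and with each library centred on its median this was 16 of 54 and 362 of 847. Of the 76 rows, 17 were at 0 in all 6 libraries.

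The row of Os02g0677300 (DREB1G) read 17.3, 15.7 and 17.2 FPKM in PIF4-GFP and 22.0, 19.6 and 22.6 FPKM in the mock. The fitted log2 difference was -0.34 (SE 0.09, adjusted p = 0.694 by limma, n = 3 per group). The row of Os09g0466400 (OsZHD1, a zinc finger homeodomain protein) read 1.84, 3.05 and 4.94 FPKM in PIF4-GFP and 5.84, 6.55 and 5.0 FPKM in the mock. The highest PIF4-GFP value, 4.94 FPKM, lay close to the lowest mock value, 5.0 FPKM. For this row the fit gave -0.73 on the log2 scale (SE 0.21, adjusted p = 0.694 by limma, n = 3 per group). Over all alternatives its adjusted p by limma ran from 0.00416, without PIF4-GFP replicate 2, to 0.998, without PIF4-GFP replicate 1, where the log2 difference was -0.46. For Os03g0655600, with a MULE transposase domain, the values were 45.1, 50.8 and 60.2 FPKM in PIF4-GFP and 62.3, 56.5 and 67.5 FPKM in the mock, groups that overlapped. It differed by -0.26 on the log2 scale (SE 0.10, adjusted p = 0.895 by limma, n = 3 per group), and -0.16 without PIF4-GFP replicate 1.

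The row with the highest level, Os06g0649000 (a WRKY factor), averaged 1959.0 ± 80.8 FPKM in PIF4-GFP and 1942.3 ± 155 FPKM in the mock (SD, n = 3). The TCP factor Os02g0635800, with its wide peak, averaged 807 ± 50.5 and 871 ± 50.8 FPKM, and the NAC factor Os07g0566500 264 ± 31.1 and 302 ± 22.8 FPKM. The smallest p among rows with a higher mean in PIF4-GFP was at Os03g0766500, a response regulator similar to ARR1 of cytokinin signalling, with 43.9 ± 3.36 against 39.7 ± 4.75 FPKM and a limma adjusted p of 0.895. None of these differences passed the test.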

How the data were processed

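Groups were taken from the sample labels, 3 libraries of PIF4-GFP and 3 of the GFP mock. The submitters' processing notes name Bowtie 0.12.2, HISAT2 2.0 and StringTie 1.3.0, without role or order, and the mouse build mm8, although loci carry rice names. The peak caller, its settings, any pooling and the rice build are not stated in the sources used here. Distances and coordinates in the peak list and the FPKM values in the tables are printed as the authors deposited them; the unit FPKM was taken from the values.

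Peaks were selected by the class the authors deposited, and isoform suffixes were stripped to loci. The start of a gene was placed from centre, strand and listed distance. Starts placed from several peaks of 1 locus agreed within 2 bp at 1604 of 1699 loci with a transcription-end peak. Shares have Wilson and differences Newcombe 95% intervals. Rows of the tables were joined by locus number, and 72 of 76 matched RefSeq, which gave the names.

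Expression was tested on log2(FPKM + 1) in limma 3.58.1 under R 4.3.3, with variance modelled on the mean. The added 1 makes fold changes of low rows understated. Rows needed at least 1 FPKM in 3 or more libraries; tests were two-sided with Benjamini-Hochberg adjustment over all rows. The procedure was tested on simulated data, with equal noise in all rows and no other differences between libraries. There it recovered 100% of changed rows at each fold, 0.5, 1.25, 1.5 and 2.0, with 8 false calls. The real libraries differ from that setting, so their power was not tested. Library totals were recovered from FPKM steps. Other tools were Python 3.11.15, pandas 2.3.3, scipy 1.17.1, statsmodels 0.14.6 and matplotlib 3.10.9.

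Named items are the 5 widest and 5 farthest peaks, the 5 loci with the largest summed width, members of the gene lists, and the rows with the highest level and smallest p. No locus had more than 1 transcription-end peak. The nearest peaks, the genes inside another locus's peak, the family members outside the lists, GRF4 and the splits by strand were chosen after their values were seen. The members and lists were chosen with earlier results of these data known. Alternatives were width limits, promoter definitions, pseudocount, filter, scale, replicate block and leaving out each library.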

Additional observations from a re-analysis of the deposited data

How the results depend on the processing

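The median distance was 4268 bp for peaks at least 1000 bp wide; taking 1 peak per locus is the same data here and tests nothing. Counted over loci, the share at transcription ends was 9.93%, and over peaks of at least 1000 bp 7.09%. The share with a promoter peak was 60.1% with promoter peaks centred within 1000 bp of the start, 46.1% with those at least 1000 bp wide and 59.5% for transcription-end peaks at least 1000 bp wide. Alternatives chosen after seeing the data gave 75.2% with peaks over the own start counted and 75.1% without peaks over 4000 bp. Both were computed for transcription-end loci alone. The share on the + strand was 49.8% up to 800 bp, 57.9% without peaks over 4000 bp and 60.3% without those over the own start, where the median width was 1000 bp. Peaks have no depth or score here, which limits each share.

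With the replicate number as a block, 1 row of all passed limma's test (89 at an unadjusted p under 0.05) and 0 rows of genes with a transcription-end peak. Whether the numbers pair the samples was not settled. Correlations of deviations between like-numbered libraries were 0.111, 0.156 and -0.0880. Libraries did not group by condition when their reads per row were compared in pairs, as a mean chi-square per row. The lowest value was 1.58, between PIF4-GFP 3 and GFP mock 1. Between like-numbered PIF4-GFP and mock libraries the value was 2.11, 2.73 and 4.77 for replicates 1, 2 and 3. Within groups it ran from 1.77, between PIF4-GFP 1 and PIF4-GFP 3, to 8.12, between PIF4-GFP 2 and PIF4-GFP 3. This spread within groups limits what a lack of calls can show. Leaving out each library gave 0 to 2 calls over all rows and 0 to 1 among genes with a transcription-end peak; the cause was not tested. Both upper values came without PIF4-GFP replicate 2. The pseudocount of 0.1, no filter and centring left 0 calls, with 31, 43 and 43 rows at an unadjusted p under 0.05.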
